A study of Homo sapiens with 9 samples.

Results

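The genes described here encode the 4 human tropomyosins (TPM1, TPM2, TPM3 and TPM4), the 3 MICAL enzymes (MICAL1, MICAL2 and MICAL3) and 3 contractile proteins (MYL9, TAGLN and ACTA2). They were taken by symbol from a table of 29972 genes, and all 10 are in it. The set was chosen on earlier results from these same libraries, in which TPM1 and MICAL2 were among the largest falls under siRNA against every ENAH isoform, and MYL9 and TPM1 among the falls under siRNA against exon 11a. TAGLN and ACTA2 stand beside MYL9 as contractile genes, and the other tropomyosins and MICALs are relatives. The values of TPM1, MICAL2, MYL9, TAGLN and ACTA2 are therefore given as a description, with no p-value and no test result of their own. Counts over all 10 genes include them and are a description too. The values of the relatives carry the p-value of a fit over all genes.

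All samples were cells of H2030, a human line from a non-small cell lung cancer, transfected with siRNA at 20 nmol/L using a lipid reagent. In the siMENA11a group the duplexes were a mix of 3 siRNAs against exon 11a of ENAH, the gene of the actin regulator hMENA. In the siMENA group they were a purchased pool that targets every isoform of ENAH, and in the control group a non-targeting pool of another product line. Each group had 3 libraries of ribosome-depleted total RNA, and nothing in the labels says that they came from separate cultures, so p-values measure only the spread between libraries, which may be technical. The groups let siRNA against the isoforms that hold exon 11a be set beside siRNA against all isoforms.

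Tropomyosins are coiled-coil dimers that lie end to end along actin filaments and set which other proteins, myosin II among them, can reach the filament. MICALs are flavoprotein monooxygenases that oxidise methionines of actin and so take filaments apart. MYL9 encodes a regulatory light chain of myosin II, TAGLN encodes transgelin (SM22-alpha), an actin-binding protein of smooth muscle, and ACTA2 encodes smooth muscle alpha-actin. Several of these genes are known targets of serum response factor (SRF) and its actin-sensing coactivators, the MRTFs, which bind the CArG box of their promoters.

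All positions here are those of GENCODE 29 on GRCh38, while the submitters' processing notes name GRCh37. TPM1 lies at chr15:63042632-63071915, TPM4 at chr19:16067021-16103005, MYL9 at chr20:36541484-36551447 and TAGLN at chr11:117199321-117204782, each on the plus strand. MICAL2 lies on the plus strand as well, at chr11:12094008-12359144. On the minus strand are TPM2 at chr9:35681992-35690121, TPM3 at chr1:154155304-154194648 and MICAL1 at chr6:109444062-109465968. MICAL3 at chr22:17787649-18024559 and ACTA2 at chr10:88935074-88991339 are on that strand too. The annotation places STAMBPL1, FAS and ACTA2-AS1 across ACTA2, and PCSK7 across TAGLN, on the opposite strand, and ZBTB24 across MICAL1 on the same strand. Reads in those overlaps may be counted for either gene, since the use of strand is not given in the sources used here.

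Sequences that bear on the siRNAs are given first, since a siRNA can also pair through its seed with other transcripts. Exon 11a of ENAH was taken as its 63-base coding exon at chr1:225504991-225505053, minus strand. Of the 57 words of 7 bases in it, CCAAGGA and CAAGGAA were those whose carriers in the 3' UTR were lowest on average under siMENA11a, over 11295 tested genes other than the 10 and ENAH and among words with at least 200 carriers. Either word stands in the 3' UTR of 24.1% of those genes, whose median log2 fold change was -0.068 against 0.030 in the rest. The exon, and the sites found in 3' UTRs of the 10 genes, with the bases of those words in capitals, read 5' to 3' as follows.
ENAH exon 11a: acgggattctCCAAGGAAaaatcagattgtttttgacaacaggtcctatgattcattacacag
TPM1 3' UTR: ctaatagatCAAGGAAagatattcctt
MYL9 3' UTR: ctgacccctCCAAGGAAagaccacctt

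The capitals cover 7 bases at the site of TPM1 and 8 at that of MYL9. At both sites the match with the exon runs on into flanking bases, further at MYL9. The other 8 genes have 0 such words in the 3' UTR searched, which was the longest annotated for each gene. TPM1 and MYL9 were lower under siMENA11a than in control. MICAL1 and MICAL2 were lower too, and by less TPM3, TPM4, TAGLN and ACTA2, all with 0 words. Of the words of ENAH transcripts that marked the lowest genes under siMENA by the same ranking, CAGCGTA and CAGAATA, the 3' UTRs of the 10 genes hold 0. The words were picked on these data and a match is a description, so the part of such pairing in any change of these genes was not tested.

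Promoter windows were read for 8 of the 10 genes, from 250 bases before to 50 bases after an annotated start. Shown are a window of TPM1 and the window of TPM4 that holds a match. TPM3, also low under siMENA, is not shown. MYL9 and TAGLN are not in the table of promoters. The CArG box was searched by its strict consensus, with only A or T between CC and GG, which reads the same on both strands. Boxes with another base in that core were not counted, so a window without a match may still hold a CArG box. A strict match was found in 1 of 16 windows of these genes, a window of TPM4, and in 1.29% of 35116 windows of all genes. The other TPM4 windows and those of TPM3 hold 0 matches. Among the SRF and MRTF targets described further on it was found in 7 of 71 windows (9.86%). The sequences are from RefSeq on GRCh38.p14, plus strand, at chr15:63048239-63048538 for TPM1 and chr19:16067288-16067587 for TPM4, with the match in capitals. It is centred at position -168 from the annotated start used for that window, which is not the only start of TPM4. Both windows lie inside the gene spans given above, which begin at an earlier base.
TPM1 promoter: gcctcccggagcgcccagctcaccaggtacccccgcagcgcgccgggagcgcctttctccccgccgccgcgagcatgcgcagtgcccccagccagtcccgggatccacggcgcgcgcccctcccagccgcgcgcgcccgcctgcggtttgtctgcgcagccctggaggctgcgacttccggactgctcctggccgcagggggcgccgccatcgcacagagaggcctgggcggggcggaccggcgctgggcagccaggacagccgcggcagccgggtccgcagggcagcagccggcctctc
TPM4 promoter: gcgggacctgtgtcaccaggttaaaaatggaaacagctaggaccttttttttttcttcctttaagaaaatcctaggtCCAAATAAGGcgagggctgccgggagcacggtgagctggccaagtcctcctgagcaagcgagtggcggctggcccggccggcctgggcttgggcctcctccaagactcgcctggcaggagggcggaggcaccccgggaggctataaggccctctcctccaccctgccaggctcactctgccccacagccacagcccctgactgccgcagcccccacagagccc

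The deposited values are TPM, a share of all transcripts in a library that takes transcript length into account. They were divided here by 1 size factor per library, between 0.891 and 1.09, and are called scaled TPM. The number of genes at 1 TPM or more was 12258 to 12520 per library. TPM keeps no depth, so counting error is unknown. All 10 genes passed the filter, a mean of 0.5 scaled TPM over the 9 libraries, and were among the 13494 genes tested with limma on log2(scaled TPM + 0.5). Called here means a limma p under 0.05 after adjustment over all tested genes, and errors of log2 fold changes are SE. ENAH itself was at 46.4 to 48.4 scaled TPM in siMENA11a, 6.85 to 7.45 in siMENA and 43.0 to 44.5 in control. A sum over isoforms checks the siMENA label and says nothing of exon 11a. Epithelial markers were mixed. As deposited, over the 9 libraries, KRT8 was at 79.4 to 104 TPM and KRT18 at 192 to 260 TPM, EPCAM at 1.19 to 3.63, CLDN4 at 0 to 0.21, CDH1 at 0.03 to 0.14 and KRT19 at 0 to 0.05. The 10 epithelial markers summed to 372 to 385 scaled TPM in siMENA11a and 343 to 369 in siMENA, against 401 to 414 in control, and their part in the results was not tested. Of 7 tested, 4 were higher and 2 lower under siMENA11a, and 2 higher and 3 lower under siMENA. KRT7 changed by 0.65 ± 0.088 under siMENA11a and -1.10 ± 0.088 under siMENA (limma adjusted p = 0.000201 and 9.4e-06), and EPCAM by 0.80 ± 0.12 under siMENA11a and 0.88 ± 0.12 under siMENA (limma adjusted p = 0.000325 and 0.000222).

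In control cells the 10 genes spanned a wide range of levels. TPM4 averaged 409.6 ± 11.3 scaled TPM (SD, n = 3), TPM3 397 ± 24.2, TPM1 361 ± 7.67 and MYL9 245 ± 5.17. Each of these 4 stood at or above the 98.0th percentile of tested genes. TAGLN followed at 23.3 ± 3.48, MICAL3 at 20.0 ± 0.578, TPM2 at 12.9 ± 0.792, MICAL2 at 11.8 ± 1.87 and MICAL1 at 11.3 ± 0.302 scaled TPM. ACTA2 was lowest of the 10 at 1.09 ± 0.0319. The control ranges overlapped between TPM4 and TPM3, between TAGLN and MICAL3, between TPM2 and MICAL2, and between MICAL2 and MICAL1. Those neighbours in the order thus did not differ beyond their spread. Under siMENA11a the order put MICAL3 above TAGLN, while under siMENA MYL9 stood above TPM1.

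**Figure D1:**
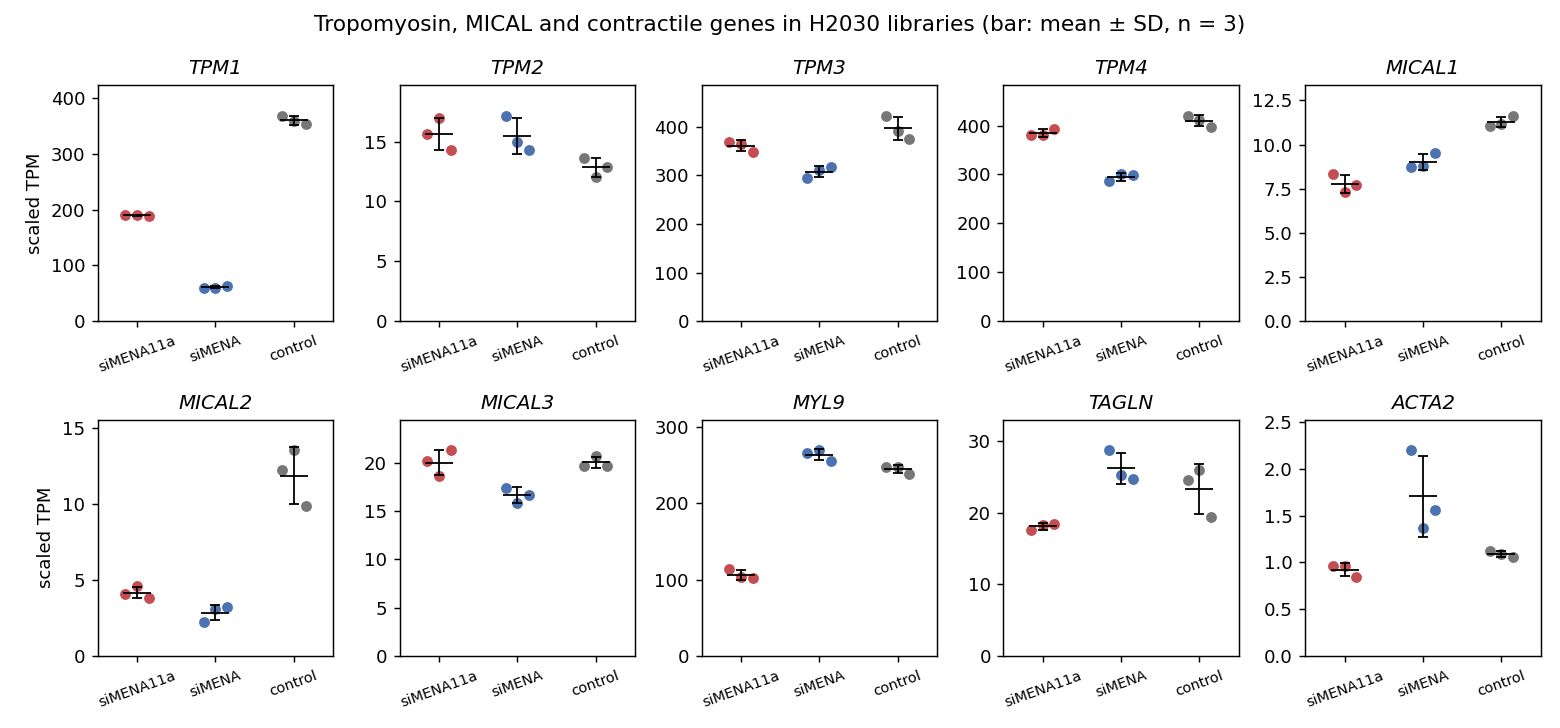
Scaled TPM (y axis, linear from 0, a scale per gene) of the 10 genes in the 3 libraries of siMENA11a, siMENA and control (points), with the mean and SD (black bars). TPM1 stands apart in each group, at 189 to 191 under siMENA11a and 59.5 to 63.6 under siMENA, while MYL9 is low in siMENA11a alone, at 102 to 114.

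The question for the knockdowns is how far these genes stood from control under each siRNA. Loss of exon 11a itself was not measured. TPM1, TPM3 and TPM4 were lower under siMENA, TPM1 by far the most, and TPM1 was also lower under siMENA11a. TPM2, the least abundant tropomyosin, was slightly higher under both. MICAL2 was low under both siRNAs. MYL9 was low under siMENA11a and close to control under siMENA. For siMENA11a against control 8 of the 10 genes were called, 1 higher and 7 lower, beside 55.6% of all tested genes (27.9% higher and 27.7% lower). For siMENA against control 8 were called, 2 higher and 6 lower, beside 49.5% of all genes (23.7% higher and 25.8% lower). Nothing is read from these counts, since falls in both comparisons were known when the genes were chosen. The median log2 fold change of the 10 was -0.25 under siMENA11a and -0.29 under siMENA, against 0.015 and 0.0075 over all tested genes. Both comparisons share the control libraries.

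The scaling between libraries moves small changes. In TPM as deposited the median log2 fold change of all genes shifted to -0.11 for siMENA11a against control, 0.086 for siMENA against control and -0.20 for siMENA11a against siMENA. After the small and structured RNAs were taken out and TPM rescaled, these medians were 0.10, 0.13 and -0.032. Of the genes called for siMENA11a against control, 50.2% were higher with the size factors, 28.6% in TPM as deposited and 63.8% after that rescaling. For siMENA against control the shares were 47.9%, 63.4% and 69.5%, and for siMENA11a against siMENA 50.3%, 24.3% and 45.7%. Changes are therefore given relative to the median of all genes.

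**Figure D2:**
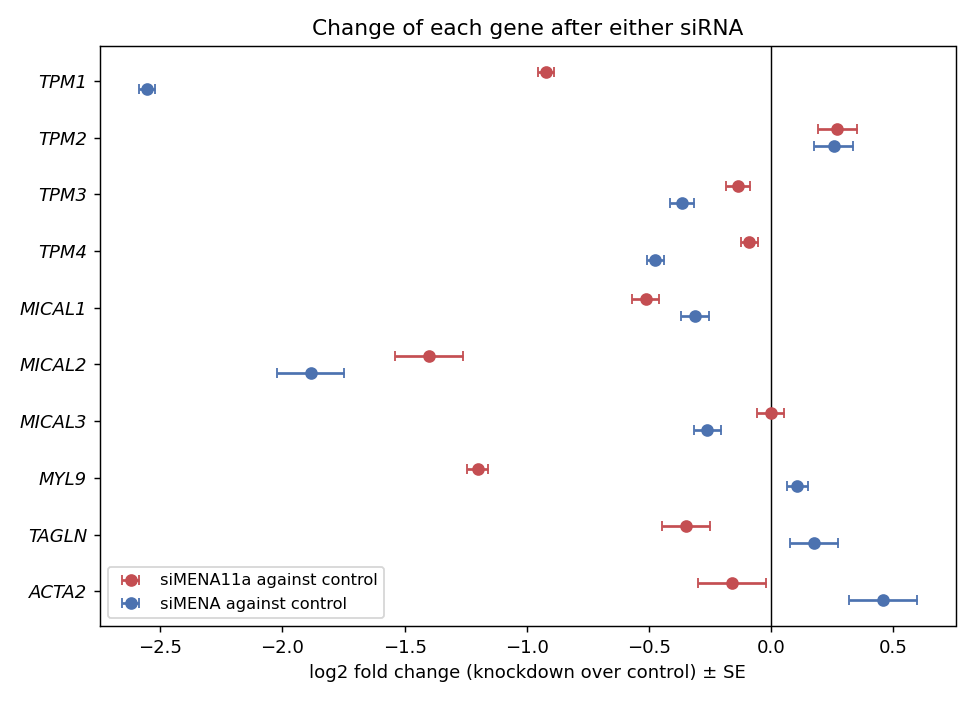
Log2 fold change over control (x axis) of each gene under siMENA11a (red) and siMENA (blue), with the standard error from limma (bars, 9 libraries in the fit). TPM1 lies at -0.92 under siMENA11a and -2.56 under siMENA, and MYL9 at -1.20 under siMENA11a and 0.11 under siMENA.

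TPM1 encodes a tropomyosin that is made as many splice isoforms, here summed. Its scaled TPM was 191, 190.4 and 189 in siMENA11a libraries and 59.8, 59.5 and 63.6 in siMENA libraries, against 369, 359 and 354 in control libraries. The 3 groups did not overlap, with siMENA lowest and siMENA11a between. TPM1 was at 52.7% of the control mean under siMENA11a, a log2 fold change of -0.92 ± 0.033 (SE), and at 16.9% under siMENA, a log2 fold change of -2.56 ± 0.033. Its log2 fold change under siMENA was number 9 from the lowest of the 13494 tested genes.

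TPM3 and TPM4 encode the other abundant tropomyosins of non-muscle cells. TPM3 had 369.7, 365 and 348 scaled TPM in siMENA11a libraries and 295, 310.4 and 317 in siMENA libraries, against 423, 393 and 375 in control libraries. TPM4 had 380.2, 381 and 394 scaled TPM in siMENA11a and 286, 301 and 298 in siMENA, against 420.0, 411 and 398 in control. Both genes were lowest in all siMENA libraries, and the siMENA11a libraries lay just under the control libraries. TPM3 fell by 0.37 ± 0.049 (log2) in siMENA cells (limma adjusted p = 0.000228) and TPM4 fell by 0.47 ± 0.034 (limma adjusted p = 4.96e-06).

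Under siMENA11a the changes of TPM3 and TPM4 were small and the calls fragile. TPM3 fell by 0.14 ± 0.049 (limma adjusted p = 0.0392) and TPM4 fell by 0.089 ± 0.034 (limma adjusted p = 0.0491) on the log2 scale. The TPM3 call ended without control 1 (-0.089, limma adjusted p = 0.14), control 2 (-0.14, 0.0689), siMENA11a 2 (-0.14, 0.0743) or siMENA11a 3 (-0.11, 0.126). The TPM4 call ended without control 1 (-0.071, limma adjusted p = 0.154), control 2 (-0.087, 0.107), siMENA11a 1 (-0.079, 0.122) or siMENA11a 2 (-0.079, 0.142). With no filter both calls ended as well (limma adjusted p = 0.0643 for TPM3 and 0.0654 for TPM4). After rescaling without small RNAs the values were -0.050 for TPM3 and -0.0037 for TPM4 (limma adjusted p = 0.382 and 0.942). The table also lists TPM3P9, a TPM3 pseudogene, at no more than 0.02 TPM, and how reads shared with such copies were counted is not given in the sources used here.

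TPM2 encodes the beta-tropomyosin of muscle, also made in other cells. It stood at 15.7, 17.0 and 14.3 scaled TPM in siMENA11a libraries and 17.2, 15.01 and 14.3 in siMENA libraries, against 13.7, 12.1 and 12.9 in control libraries. Every knockdown library lay above the control libraries, by a small margin. TPM2 rose by 0.27 ± 0.081 under siMENA11a (limma adjusted p = 0.017) and by 0.26 ± 0.081 under siMENA (limma adjusted p = 0.0252) on the log2 scale. The siMENA11a call ended in TPM as deposited (0.14, limma adjusted p = 0.109) and without control 2 (0.23, 0.063) or siMENA11a 2 (0.22, 0.0643). Its siMENA call ended without control 2 (0.21, limma adjusted p = 0.0874), control 3 (0.26, 0.0566) or siMENA 1 (0.18, 0.0871).

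Shares within the tropomyosin pool do not depend on any scaling between libraries. TPM1 made up 20.0% ± 0.0132 of the summed TPM of the 4 genes in siMENA11a, 8.98% ± 0.267 in siMENA and 30.6% ± 0.470 in control (SD, n = 3 each). TPM3 held 37.9% ± 0.944 in siMENA11a and 45.3% ± 0.461 in siMENA, against 33.6% ± 0.814 in control. TPM4 held 40.4% ± 1.06 in siMENA11a and 43.4% ± 0.446 in siMENA, against 34.7% ± 0.389 in control. TPM3 and TPM4 thus held larger shares of the pool in both knockdowns, more so in siMENA, although both were themselves lower under siMENA. TPM1 was chosen for its fall, so these shares are a description. Within a library TPM3 was 0.885 to 0.972 times TPM4 in siMENA11a and 1.03 to 1.07 times in siMENA, against 0.944 to 1.01 times in control. TPM1 was 0.517 to 0.542 times TPM3 in siMENA11a and 0.192 to 0.203 times in siMENA, against 0.872 to 0.942 times in control.

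The summed level of the 4 tropomyosins was lower as well. It was 952 ± 5.89 scaled TPM in siMENA11a and 679 ± 18.4 in siMENA, against 1180.0 ± 43.2 in control (SD, n = 3 each). TPM1 made up 74.7% of the difference of siMENA11a from control and 59.8% of that of siMENA. TPM3 made up 15.7% under siMENA11a and 17.8% under siMENA, and TPM4 made up 10.8% under siMENA11a and 22.9% under siMENA. These parts depend on the scaling, and those under siMENA11a rest on the fragile changes of TPM3 and TPM4 given above.

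**Figure D3:**
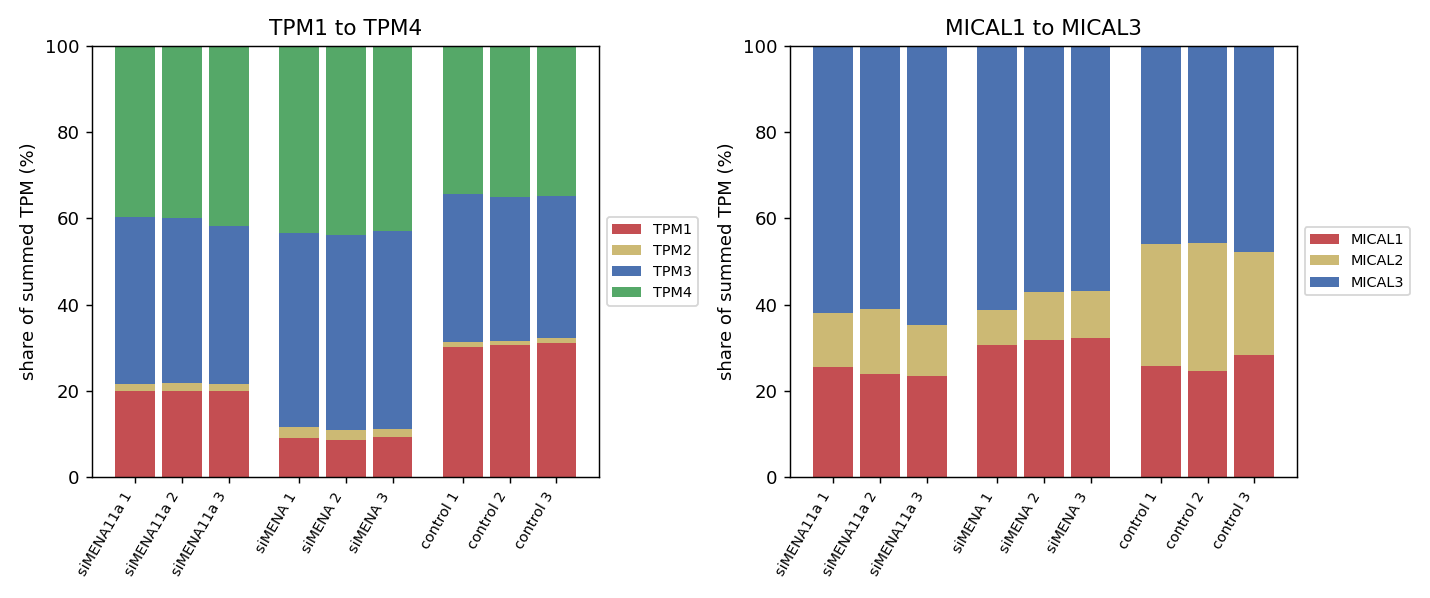
Share (y axis, % of summed TPM as deposited) of each tropomyosin (left) and each MICAL (right) in the 9 libraries, ordered siMENA11a, siMENA and control. TPM1 takes 20.0% in siMENA11a, 8.98% in siMENA and 30.6% in control on average, and the MICAL2 band is narrower in both knockdowns than in control.

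MICAL2 is the MICAL best known for work on nuclear actin, where it frees the MRTF coactivators of SRF. Its scaled TPM was 4.05, 4.57 and 3.84 in siMENA11a libraries and 2.25, 3.07 and 3.22 in siMENA libraries, against 12.2, 13.5 and 9.83 in control libraries. The 3 groups did not overlap, although the control libraries spread widely. MICAL2 was at 35.1% of the control mean under siMENA11a (log2 fold change -1.40 ± 0.14) and at 24.0% under siMENA (-1.88 ± 0.14). Counted from the lowest log2 fold change of all tested genes, MICAL2 was number 76 under siMENA11a and 21 under siMENA.

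MICAL1 and MICAL3 are regulated by autoinhibition and by RAB proteins, and MICAL3 also takes part in vesicle docking. MICAL1 had 8.31, 7.30 and 7.69 scaled TPM in siMENA11a and 8.72, 8.80 and 9.50 in siMENA, against 11.1, 11.2 and 11.6 in control. All knockdown libraries lay below the control libraries. MICAL1 fell by 0.51 ± 0.056 under siMENA11a (limma adjusted p = 5.29e-05) and fell by 0.31 ± 0.056 under siMENA (limma adjusted p = 0.00149) on the log2 scale.

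MICAL3 had 20.1, 18.6 and 21.3 scaled TPM in siMENA11a and 17.4, 15.8 and 16.7 in siMENA, against 19.7, 20.7 and 19.7 in control. Its siMENA11a libraries lay on both sides of the control libraries, and those of siMENA lay below them. The log2 fold change was -0.0022 ± 0.054 under siMENA11a (limma adjusted p = 0.977), with no direction that held: it was 0.020 without control 2 and 0.049 without siMENA11a 2. In siMENA cells MICAL3 fell by 0.26 ± 0.054 (limma adjusted p = 0.0032), a call that ended in TPM as deposited (-0.18, limma adjusted p = 0.0742) and after rescaling without small RNAs (-0.15, 0.074).

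The makeup of the MICAL pool differed as well, and MICAL2 too was chosen for its fall. MICAL2 held 13.1% ± 1.72 of the summed TPM of the 3 genes in siMENA11a and 9.99% ± 1.78 in siMENA, against 27.4% ± 3.08 in control (SD, n = 3 each). MICAL3 held 62.6% ± 1.96 in siMENA11a and 58.4% ± 2.54 in siMENA, against 46.4% ± 1.22 in control. MICAL1 held 24.3% ± 1.11 in siMENA11a and 31.6% ± 0.802 in siMENA, against 26.2% ± 1.88 in control. The sum of the 3 genes was 31.9 ± 1.24 scaled TPM in siMENA11a and 28.5 ± 0.883 in siMENA, against 43.2 ± 2.11 in control, and MICAL2 made up 68.6% of the difference from control under siMENA11a and 61.4% under siMENA.

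MYL9 showed the widest contrast between the siRNAs among the contractile genes. It had 114, 104 and 102 scaled TPM in siMENA11a libraries and 266, 269 and 256 in siMENA libraries, against 248, 247 and 239 in control libraries. The siMENA11a libraries were far below all others, and the siMENA libraries lay just above those of control. MYL9 was at 43.4% of the control mean under siMENA11a (log2 fold change -1.20 ± 0.044), and at 108% under siMENA (0.11 ± 0.044). The siMENA value was 0.19 in TPM as deposited and 0.23 after rescaling without small RNAs. Within a library MYL9 was 0.539 to 0.594 times TPM1 in siMENA11a and 4.03 to 4.53 times TPM1 in siMENA, against 0.673 to 0.688 times in control.

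TAGLN and ACTA2 had lower levels than MYL9. TAGLN had 17.6, 18.3 and 18.4 scaled TPM in siMENA11a and 28.7, 25.2 and 24.8 in siMENA, against 24.6, 26.0 and 19.4 in control. The siMENA11a libraries lay below the others, while siMENA and control overlapped. The log2 fold change of TAGLN was -0.35 ± 0.098 under siMENA11a and 0.17 ± 0.098 under siMENA. After rescaling without small RNAs it was -0.27 under siMENA11a and 0.30 under siMENA.

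ACTA2 was at 0.966, 0.963 and 0.839 scaled TPM in siMENA11a and 2.20, 1.36 and 1.56 in siMENA, against 1.12, 1.09 and 1.06 in control. The groups did not overlap, and siMENA 1 stood above the other siMENA libraries. The log2 fold change was -0.16 ± 0.14 under siMENA11a and 0.46 ± 0.14 under siMENA, and the siMENA value was 0.30 without siMENA 1. Actin genes are near-identical in their coding sequence, and ACTB averaged 2986 scaled TPM in siMENA11a and 2850.0 in siMENA, against 4340 in control, so a level of about 1 TPM for ACTA2 is uncertain.

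The summed level of markers of smooth muscle, pericytes and fibroblasts was lower under siMENA11a and higher under siMENA. The part of these markers in the result was not tested. The summed scaled TPM of 15 such markers was 22.4 to 22.7 in siMENA11a and 36.3 to 38.0 in siMENA, against 26.6 to 28.7 in control. The sum rested on SYNM and COL1A1, and 11 of the 15 had a mean under 0.5. The defining genes MYH11 and DES did not exceed 0.03 TPM in any library, and CNN1, PDGFRA, PDGFRB and DCN did not exceed 0.27 TPM. Of the 4 tested markers, 2 were called lower and 0 higher under siMENA11a, and 2 higher and 0 lower under siMENA. These were SYNM and COL1A1 in both comparisons, while RGS5 and COL3A1 were called in neither. In a bulk library, fewer cells with a gene and less RNA per cell cannot be told apart.

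For siMENA11a against siMENA 9 of the 10 genes were called, 5 higher and 4 lower in siMENA11a, beside 58.7% of all tested genes (29.5% higher and 29.2% lower). Nothing is read from this count, since the same libraries served to choose the genes. The median of the 10 was 0.12, against 0.00064 over all genes. As a description, the log2 fold change was 1.63 ± 0.033 for TPM1, 0.49 ± 0.14 for MICAL2, -1.31 ± 0.044 for MYL9, -0.52 ± 0.098 for TAGLN and -0.62 ± 0.14 for ACTA2. Among the relatives, TPM4 was higher in siMENA11a (0.38 ± 0.034, limma adjusted p = 9.07e-06), and so were TPM3 (0.23 ± 0.049, limma adjusted p = 0.00257) and MICAL3 (0.26 ± 0.054, limma adjusted p = 0.00248). MICAL1 was lower (-0.20 ± 0.056, limma adjusted p = 0.0116). In TPM as deposited TPM3 (0.013, limma adjusted p = 0.845) and MICAL3 (0.047, 0.61) were no longer called, and the value of MICAL2 was 0.30. TPM2 did not differ beyond its error (0.016 ± 0.081, limma adjusted p = 0.882), but was lower in siMENA11a in TPM as deposited (-0.20, limma adjusted p = 0.0302).

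Genes that work with tropomyosin on the filament were read from a list of 16, of which 8 were tested. For this list and those that follow, calls and medians stand beside the shares and medians of all tested genes given above. All lists were chosen with earlier results of these data known, so their counts are a description. Under siMENA11a 2 were higher, 4 lower and 2 not called (median log2 fold change -0.15), and under siMENA 0 were higher, 5 lower and 3 not called (-0.35). TMOD3, a tropomodulin that caps pointed ends of tropomyosin-coated filaments, averaged 111 scaled TPM in siMENA11a and 41.0 in siMENA, against 61.8 in control. It rose by 0.84 ± 0.031 under siMENA11a (limma adjusted p = 8.83e-08) and fell by 0.59 ± 0.031 under siMENA (limma adjusted p = 8.39e-07), and the knockdowns differed by 1.43 ± 0.031 (limma adjusted p = 2.93e-09). The calponin genes CNN2 and CNN3 fell in both comparisons, CNN2 by 0.76 ± 0.038 under siMENA11a (limma adjusted p = 3.88e-07) and CNN3 by 0.56 ± 0.036 under siMENA (limma adjusted p = 2.57e-06).

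Partners of the MICALs were split. Of 19 tested out of 24, 6 were higher and 7 lower under siMENA11a (median 0.022), and 7 higher and 7 lower under siMENA (median -0.026). In TPM as deposited 3 were higher and 8 lower under siMENA11a, and 8 higher and 2 lower under siMENA. After rescaling without small RNAs 7 were higher and 6 lower under siMENA11a, and 10 higher and 2 lower under siMENA. MICALL1, a MICAL-like protein of recycling endosomes, fell by 0.64 ± 0.048 under siMENA11a (limma adjusted p = 4.35e-06), and RAB8A, a small GTPase that binds MICALs, fell by 0.80 ± 0.053 (limma adjusted p = 2.17e-06). MSRB1, the reductase that reverses methionine oxidation of actin, averaged 55.1 scaled TPM in siMENA11a and 35.9 in siMENA, against 50.2 in control. MSRB1 fell by 0.48 ± 0.037 under siMENA (limma adjusted p = 6.99e-06) and rose slightly, by 0.13 ± 0.037, under siMENA11a (limma adjusted p = 0.0112). Its relative MSRB3 rose by 0.45 ± 0.036 under siMENA11a and 0.23 ± 0.036 under siMENA (limma adjusted p = 6.7e-06 and 0.00057). The semaphorin SEMA3C rose under both, by 0.62 ± 0.038 under siMENA11a and 0.47 ± 0.038 under siMENA (limma adjusted p = 1.21e-06 and 9.36e-06).

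Of 26 tested genes of myosin II and its regulators, out of 28, 5 were higher and 11 lower under siMENA11a (median -0.032), and 3 higher and 12 lower under siMENA (median -0.050). These splits turned on the scaling: after rescaling without small RNAs 10 were higher and 11 lower under siMENA11a, and 9 higher and 8 lower under siMENA, while in TPM as deposited 1 was higher and 13 lower under siMENA11a, and 6 higher and 9 lower under siMENA. RHOA, the GTPase that switches on ROCK and formins, averaged 58.5 scaled TPM in siMENA11a and 191 in siMENA, against 225 in control, and fell by 1.94 ± 0.047 under siMENA11a (limma adjusted p = 8.29e-09). Its relative RHOB fell by 0.90 ± 0.056 under siMENA11a (limma adjusted p = 1.56e-06) and rose by 0.69 ± 0.056 under siMENA (limma adjusted p = 1.09e-05). CDC42BPB, a kinase of the MRCK family, fell by 1.10 ± 0.040 in siMENA11a cells (limma adjusted p = 8.54e-08).

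MYL12A, a non-muscle regulatory light chain related to MYL9, averaged 346 scaled TPM in siMENA11a and 146 in siMENA, against 331 in control. It fell by 1.18 ± 0.036 (log2) in siMENA cells (limma adjusted p = 4.72e-08). MYL12A has a near-identical neighbour, MYL12B, with which it can share reads. The kinase gene ROCK2 fell by 0.70 ± 0.039 under siMENA (limma adjusted p = 1.07e-06) and RHOC fell by 0.61 ± 0.036 (limma adjusted p = 1.5e-06).

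Of the other actin genes, 3 of 5 were tested. ACTB and ACTG1, the cytoplasmic actins, fell under siMENA11a by 0.54 ± 0.045 and 0.64 ± 0.043 (limma adjusted p = 9.39e-06 and 2.36e-06). Under siMENA they fell by 0.61 ± 0.045 and 0.58 ± 0.043 (limma adjusted p = 6.18e-06 and 5.8e-06). ACTG2, the enteric smooth muscle actin, averaged 0.237 scaled TPM in siMENA11a and 1.79 in siMENA, against 0.433 in control, and rose by 1.32 ± 0.19 under siMENA (limma adjusted p = 0.000353), with the same caution on shared actin reads.

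The SRF module was read as factors and as targets. Of 9 tested factors out of 10, 2 were higher and 6 lower under siMENA11a (median -0.19), and 5 higher and 2 lower under siMENA (median 0.20). After rescaling without small RNAs 2 were higher and 3 lower under siMENA11a, and 5 higher and 1 lower under siMENA. SRF averaged 26.9 scaled TPM in siMENA11a and 32.7 in siMENA, against 23.7 in control, and rose by 0.46 ± 0.042 under siMENA (limma adjusted p = 2.2e-05). MYOCD, the myocardin gene, fell by 0.84 ± 0.10 under siMENA11a (limma adjusted p = 0.000101), with means of 0.770 scaled TPM in siMENA11a and 1.90 in siMENA, against 1.77 in control. MKL1, which encodes MRTF-A, rose by 0.32 ± 0.041 under siMENA11a, and MKL2, which encodes MRTF-B, fell by 0.43 ± 0.067 (limma adjusted p = 0.00015 and 0.000471).

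Of 32 tested SRF and MRTF targets out of 38, with the 10 genes left out, 8 were higher and 16 lower under siMENA11a (median -0.17). Under siMENA 3 were higher and 26 lower (median -0.34), beside 23.7% and 25.8% of all genes. The lower calls outnumbered the higher ones under every scaling run, at 5 higher and 18 lower (TPM as deposited) and 11 higher and 14 lower (rescaled) under siMENA11a, and at 3 higher and 21 lower (TPM as deposited) and 4 higher and 22 lower (rescaled) under siMENA. This list too was chosen with earlier results of these libraries known, so the split is a description and was not tested. Some of these targets, such as CNN2 and MYH9, are also in the lists of partners. CYR61, a matricellular growth regulator, fell by 0.65 ± 0.027 under siMENA11a and 0.80 ± 0.027 under siMENA (limma adjusted p = 1.43e-07 and 8.31e-08). Other targets rose under both siRNAs. CTGF rose by 0.81 ± 0.056 under siMENA11a and 0.24 ± 0.056 under siMENA (limma adjusted p = 2.95e-06 and 0.00646). JUNB rose by 0.67 ± 0.044 under siMENA11a and 0.31 ± 0.044 under siMENA (limma adjusted p = 1.94e-06 and 0.00029). THBS1, the thrombospondin 1 gene, fell by 1.92 ± 0.052 and the formin gene DIAPH1 by 1.10 ± 0.037 under siMENA11a (limma adjusted p = 1.43e-08 and 6.12e-08). Destrin (DSTN), which severs actin filaments, fell by 0.93 ± 0.045 under siMENA (limma adjusted p = 5.04e-07). TAGLN2, the transgelin of non-muscle cells, averaged 1055 scaled TPM in siMENA11a and 610.2 in siMENA, against 1028 in control, and fell by 0.75 ± 0.041 under siMENA (limma adjusted p = 9.37e-07). The pattern of TAGLN2 was thus unlike that of its relative TAGLN, which was 26.2 scaled TPM on average in siMENA.

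**Figure D4:**
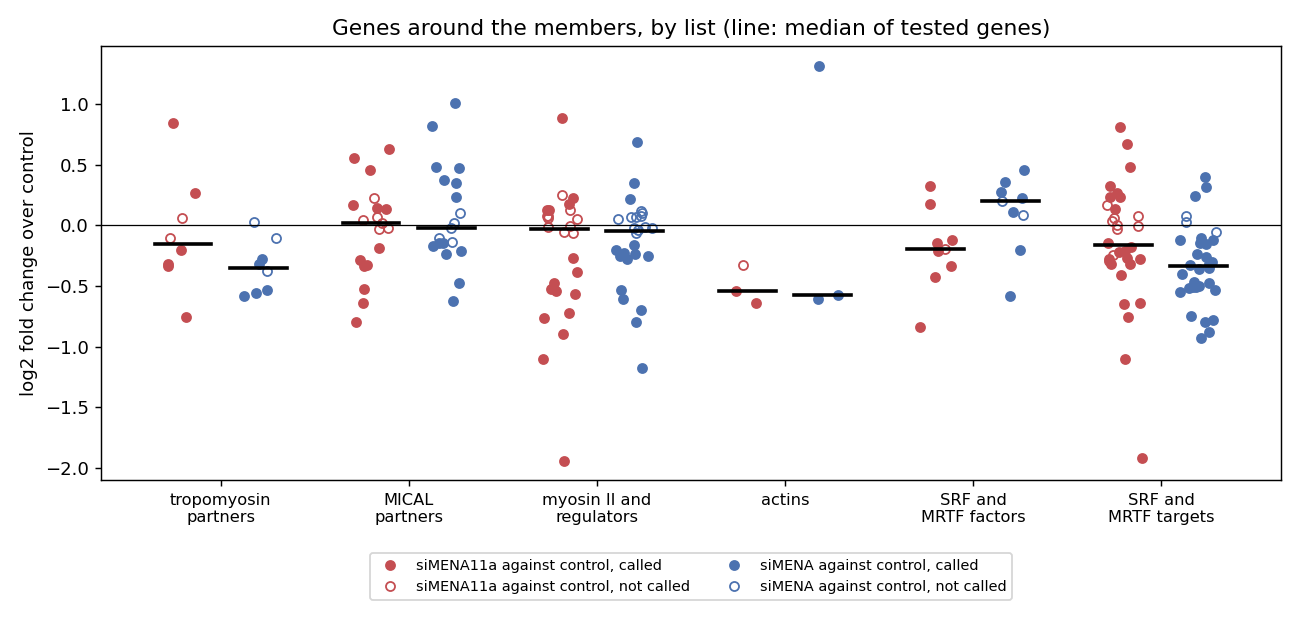
Log2 fold change over control (y axis) of the tested genes of 6 lists under siMENA11a (red) and siMENA (blue). Filled points were called, open points were not, and black lines are medians, which for the SRF and MRTF targets lie at -0.17 under siMENA11a and -0.34 under siMENA.

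The genes with the pattern most like TPM1 over the 9 libraries were NGRN, ADRBK2 and TGFB2, by Pearson correlation of log2 values among 12451 genes averaging 1 scaled TPM or more (r = 0.9986, 0.9985 and 0.9982). The 9 points are the same libraries and fall into 3 groups, so r describes the order and spacing of the groups. NGRN averaged 87.8 scaled TPM in siMENA11a and 62.8 in siMENA, against 104 in control. TGFB2, a TGF-beta ligand gene, averaged 20.5 in siMENA11a and 11.3 in siMENA, against 29.5 in control. Their log2 fold changes were smaller than that of TPM1, at -0.73 for NGRN, -1.15 for ADRBK2 and -1.34 for TGFB2 under siMENA.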

How the data were processed

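Stranded total RNA libraries were prepared after ribosomal RNA depletion and sequenced as read pairs, per the labels' protocols. The deposited table holds TPM values, which the authors rounded to 2 decimals, and its name points to RSEM. Per the submitters' processing notes, kallisto and GRCh37 are named with no role. Neither the aligner nor any strand setting is stated in the sources used here. All 9 value columns were used and 0 others were found.

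Size factors were medians of ratios, taken over the 12341 genes averaging 1 TPM or more with no library at 0, and each library's TPM was divided by its own factor. A filter kept genes averaging 0.5 scaled TPM or more. A single limma model (version 3.58.1, R 4.3.3) of the 9 libraries with a mean for each group, a mean trend and no block was run on log2(scaled TPM + 0.5), and p-values were adjusted by Benjamini and Hochberg over all tested genes. Fold changes on this scale understate those of low genes, and their errors are SE.

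The 10 genes and all lists were chosen with earlier results of these data known. From each list up to 4 called genes with the lowest adjusted p in a comparison are named, and 3 genes most like TPM1. CTGF and JUNB were added as SRF and MRTF targets that rose. Alternatives were TPM as deposited, rescaling without small RNAs, pseudocounts of 0.1 and 1, a filter at 5, no filter, the replicate block and leaving out each library.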

Additional observations from a re-analysis of the deposited data

Results flagged for a closer look

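The effects of siMENA11a and siMENA can be set against each other directly, since the shared control cancels. By limma's test of siMENA11a against siMENA they differed for TPM3, TPM4, MICAL1 and MICAL3. In TPM as deposited those of TPM3 (0.013) and MICAL3 (0.047) were not called. The differences of TPM1, MICAL2, MYL9, TAGLN and ACTA2 are a description with no test, since these genes were chosen on, or beside, effects in the same libraries. On the log2 scale the difference (siMENA11a minus siMENA) was 1.63 for TPM1, with effects of -0.92 under siMENA11a and -2.56 under siMENA. It was -1.31 for MYL9 (-1.20 under siMENA11a and 0.11 under siMENA), -0.52 for TAGLN (-0.35 under siMENA11a and 0.17 under siMENA) and -0.62 for ACTA2 (-0.16 under siMENA11a and 0.46 under siMENA). The difference was 0.23 for TPM3, 0.38 for TPM4, 0.49 for MICAL2, 0.26 for MICAL3 and -0.20 for MICAL1, all with effects of the same sign under both siRNAs, except that the siMENA11a effect of MICAL3 (-0.0022) had no stable sign.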

How the results depend on the processing

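The fold changes of the 10 genes in 3 comparisons were recomputed under 16 settings, 387 values in all. Of these 346 kept direction and side of the threshold, 29 lost the call, 4 gained it and 8 changed sign. The sign changes were of 2 values. MICAL3 under siMENA11a was 0.083 after rescaling without small RNAs and -0.044 to 0.049 with 1 library left out. TPM2 in siMENA11a against siMENA was -0.20 in TPM as deposited, -0.020 after rescaling and -0.041 to 0.089 with 1 library left out. The summed ENAH value under siMENA11a was -0.014 in TPM as deposited, against 0.12 and a call with size factors. The cause was not tested.

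The number of the 10 genes called for siMENA11a against control was 8, but 5 after rescaling without small RNAs, and 5 to 8 with 1 library left out (5 without control 2 or siMENA11a 2). It was 6 to 8 for siMENA against control and 9 for siMENA11a against siMENA with 1 library left out. Same-numbered libraries showed no shared deviation (correlations of -0.065 to 0.059 over 9 pairs). Libraries of different number gave -0.064 to 0.10 over 18 pairs. Whether the numbers pair the libraries cannot be told from this. With the replicate block the calls among the 10 genes and among all genes were 6 and 7308 for siMENA11a against control, 9 and 6384 for siMENA against control, and 9 and 7732 for siMENA11a against siMENA. Without it they were 8 and 7502, 8 and 6674, and 9 and 7920. The share of TPM1 in its pool, an alternative added after the data were seen, ranged from 19.97% to 19.98% in siMENA11a, 8.88% to 9.13% in siMENA and 30.3% to 30.8% in control with 1 library left out. Of 1045 values recomputed for the list genes picked by lowest adjusted p, 2 lost the call (CALD1 and CNN3 in siMENA11a against siMENA, in TPM as deposited). Depth is unknown, so no limit from counting can be given.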
